A study of Mus musculus with 8 samples.

Results

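The aquaporin genes read in these livers were Aqp8, Aqp9, Aqp1, Aqp11, Aqp4, Aqp7 and Aqp3, which were taken by symbol from the deposited expression table and make up 7 of its 55416 genes. They were compared in bulk RNA sequencing of mouse liver with 8 libraries, 2 in each of 4 groups. The control mice were Glul flox/flox (called floxed here), with both alleles of Glul, the gene for glutamine synthetase, flanked by loxP sites. The GlulΔlyz2 mice (called KO here) delete Glul where Cre recombinase is made under control of Lyz2, which is in macrophages, monocytes and neutrophils for the most part and not in hepatocytes. Each genotype was injected into the peritoneum with H2O, or with 1 mg/kg lipopolysaccharide (LPS) and 200 mg/kg D-galactosamine (D-GalN), which together cause acute liver injury. LPS is a bacterial stimulus of macrophages, and D-GalN depletes uridine nucleotides in hepatocytes and so impairs their transcription. The title of the study asks about liver injury in mice that lack glutamine synthetase in myeloid cells. Neither the age of the mice nor the time between injection and collection is stated in the labels. Nor do they state that libraries of 1 group are separate animals, so the p-values below measure only the spread between libraries.

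Aquaporins are membrane proteins that form channels for water, and the aquaglyceroporins among them also pass glycerol and other small uncharged molecules. In liver, Aqp8 lies in the canalicular membrane and in vesicles of hepatocytes, where it passes water during bile formation, and it has also been found in mitochondria. Aqp9 lies in the sinusoidal membrane of hepatocytes and takes up glycerol that adipose tissue releases, which the liver turns into glucose or lipid. Aqp1 is a water channel of endothelial cells, bile duct cells and red blood cells, Aqp11 lies in the endoplasmic reticulum, and Aqp3 and Aqp7 are further aquaglyceroporins, of epithelia and adipose tissue. Aqp4 is the main water channel of astrocytes.

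After injury the aquaporin makeup of the liver changed, and it changed differently in the 2 genotypes. Aqp8, the most abundant aquaporin after H2O, fell 36.5-fold in floxed livers and 4.91-fold in KO livers. Aqp1 fell 1.93-fold in floxed livers but rose 3.47-fold in KO livers. Aqp9 and Aqp11 fell in both genotypes. Injured KO livers held 6.65-fold more Aqp8 and 5.97-fold more Aqp1 than injured floxed livers, while no aquaporin passed the test between the genotypes after H2O. These folds are ratios of group means in FPKM, that is, fragments per kilobase of exon scaled to the assigned fragments of each library, a unit per length in which levels of different genes can be set side by side.

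Tests used log2(FPKM + 1), where the added 1 FPKM shrinks the change of low genes, and a gene is said to have risen or fallen only where its Benjamini-Hochberg adjusted p in limma was below 0.05. A gene entered the tests if it reached 1 FPKM in 2 or more libraries. That left 13708 genes, with 4 of the 7 aquaporins among them: Aqp8, Aqp9, Aqp1 and Aqp11. Aqp11 entered through 5 libraries above 1 FPKM, none of them from injured floxed livers, and the filter favours genes that are low there and higher elsewhere. Aqp4, Aqp7 and Aqp3 lay below that level in all libraries.

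The 300 bases around the start of transcription (250 before and 50 after) are shown for the 4 aquaporin genes that were tested, because 3 of them fell in both genotypes after injury, while Aqp1 fell in floxed and rose in KO livers. The sequences are those of RefSeq on build GRCm38.p6, written 5′ to 3′ on the strand of the gene, with CG pairs in capitals. The deposited values refer to GRCm39 per the submitters' processing notes, so these positions serve to identify the windows only. The windows are chr7:123462044-123462343 on the plus strand for Aqp8, chr9:71163240-71163539 on the minus strand for Aqp9, chr7:97738198-97738497 on the minus strand for Aqp11 and chr6:55336049-55336348 on the plus strand for Aqp1. Aqp9 has a further start 656 bases downstream whose window is not printed.
Aqp8: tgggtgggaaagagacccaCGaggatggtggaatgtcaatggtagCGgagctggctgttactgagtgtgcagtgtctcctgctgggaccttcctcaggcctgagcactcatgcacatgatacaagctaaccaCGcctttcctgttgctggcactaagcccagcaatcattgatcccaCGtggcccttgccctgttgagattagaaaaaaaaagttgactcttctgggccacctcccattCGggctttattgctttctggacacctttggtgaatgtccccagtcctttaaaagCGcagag
Aqp9: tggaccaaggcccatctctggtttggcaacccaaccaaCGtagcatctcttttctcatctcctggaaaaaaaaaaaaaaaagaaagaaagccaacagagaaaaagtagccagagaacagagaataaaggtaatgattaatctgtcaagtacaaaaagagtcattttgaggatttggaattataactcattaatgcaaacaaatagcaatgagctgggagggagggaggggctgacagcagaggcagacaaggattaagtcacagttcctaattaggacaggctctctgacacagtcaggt
Aqp11: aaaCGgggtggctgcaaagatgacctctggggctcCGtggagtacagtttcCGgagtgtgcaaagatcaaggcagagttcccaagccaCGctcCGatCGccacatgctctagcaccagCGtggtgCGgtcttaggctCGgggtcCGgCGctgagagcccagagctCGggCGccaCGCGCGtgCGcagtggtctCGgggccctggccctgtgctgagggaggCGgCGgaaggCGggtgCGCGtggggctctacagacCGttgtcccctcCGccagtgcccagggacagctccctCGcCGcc
Aqp1: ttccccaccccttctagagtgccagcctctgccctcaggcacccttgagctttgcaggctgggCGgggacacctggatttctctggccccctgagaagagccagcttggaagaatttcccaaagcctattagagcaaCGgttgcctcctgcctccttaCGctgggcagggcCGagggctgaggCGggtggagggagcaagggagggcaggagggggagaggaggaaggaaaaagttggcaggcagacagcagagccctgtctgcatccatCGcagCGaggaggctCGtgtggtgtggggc

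The 3 windows of the genes that fell in both genotypes differed in base composition. The Aqp11 window was 68% G and C with 27 CG pairs, the Aqp8 window 52% with 6, and the Aqp9 window 41.3% with 1. The Aqp1 window held 62.7% and 8 pairs, and the median over all 32851 RefSeq windows of mouse genes was 52.7% and 7 pairs. Both strands were searched for 10 motifs: the TATA box TATAAA, the GC box GGGCGG, the CCAAT box, the HNF4 motif CAAAGTCCA, the FOXA motif TGTTTAC, the C/EBP motif TTNNGNAA, the GATA motif AGATAA, the STAT motif TTCNNNGAA, the AP-1 motif TGANTCA and an NF-kB motif. None of them, in the form searched, occurs in the windows of Aqp8 and Aqp11. The NF-kB motif was searched in 1 narrow form only, which 0.411% of all windows hold. Wider forms of the NF-kB motif were not searched, so their absence from the windows of Aqp8 and the other genes is not shown. The C/EBP motif, which 40.7% of all windows hold, began at base -229 from the start in the Aqp9 window, and at bases -136 and -135 on the minus strand in the Aqp1 window, where the matches overlap each other. The Aqp1 window also held the GC box at base -190, found in 35.7% of windows. These matches describe letters only.

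Libraries held between 18381670 and 24799143 assigned fragments, and a single fragment from a 1 kb gene was worth 0.0403 to 0.0544 FPKM. Glul, which hepatocytes around the central vein also express, stood at 107 and 106 FPKM in floxed and 89.8 and 134 FPKM in KO livers after H2O, and at 358 and 237 against 74.6 and 90.1 FPKM after injury, so whole liver checks the deletion only indirectly. Albumin (Alb), the defining hepatocyte product, lay between 18281 and 27308 FPKM in the 8 libraries. The first library of injured KO livers stood apart, with 32178 genes above 0 against 22688 to 26652 in the others and with 2.00% of its fragments in haemoglobin genes against 0.00443% to 0.285%. Injured KO livers also held more RNA of other cell types than injured floxed livers. All 10 neutrophil markers were higher (summed levels of 991 and 1060 FPKM against 112 and 177), as were 5 of 6 tested markers of monocytes and macrophages, 4 of 6 of Kupffer cells and 6 of 8 of stellate cells. Of all tested genes 25.3% were higher and 27.2% lower in this comparison. What part these other cell types had in the results below was not tested. In bulk tissue, fewer cells of a type and less RNA per cell cannot be told apart.

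**Figure D1:**
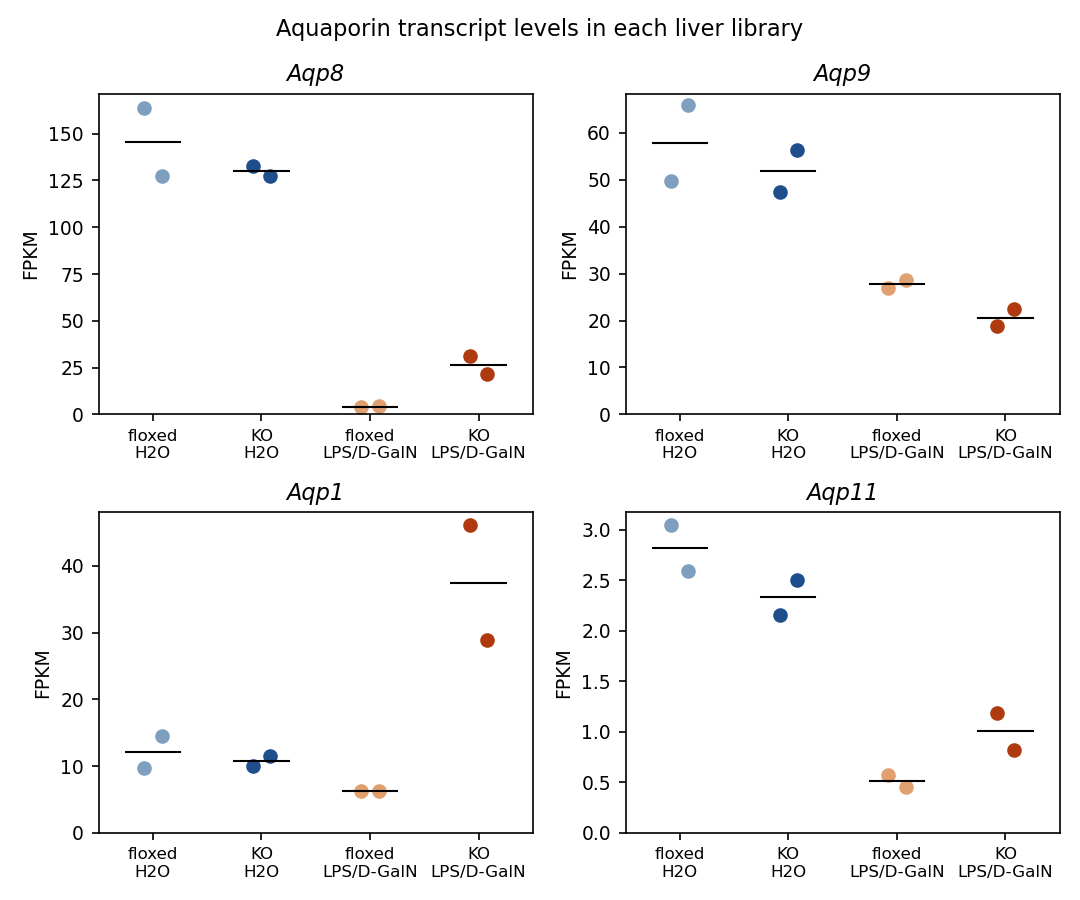
Level of each tested aquaporin (FPKM, linear axis from 0, 1 panel a gene) by group, with 1 point for each library and a line at the mean of the group. Aqp8 is lowest in injured floxed livers (3.76 and 4.21 FPKM) and Aqp1 highest in injured KO livers (46.1 and 28.9 FPKM).

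Aqp8, the canalicular water channel, was the aquaporin with the highest level in all 4 libraries after H2O. It stood at 163.5 and 127.4 FPKM in floxed livers, 133.0 and 127.4 FPKM in KO livers, 3.76 and 4.21 FPKM in injured floxed livers, and 31.4 and 21.6 FPKM in injured KO livers. The libraries of injured floxed livers were lowest, those of injured KO livers came next, and neither overlapped the H2O libraries or each other. The group means were 145 ± 25.6, 130 ± 3.92, 3.99 ± 0.320 and 26.5 ± 6.95 FPKM (SD, n = 2 each, in the same order). On the log2 scale the change after injury was -4.87 ± 0.22 in floxed livers (SE, adjusted p = 1.06e-05), and it was -2.28 ± 0.22 for the KO genotype (adjusted p = 0.000106). In floxed livers this was the 11th largest fall among the 13708 genes tested, and in KO livers the 320th. Ordered by level, Aqp8 moved from place 292 of 13708 in floxed livers after H2O to place 5844 after injury, and stood at place 1471 in injured KO livers.

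The difference between the genotypes in the change of Aqp8 was itself tested as an interaction, at 2.59 ± 0.31 on the log2 scale (adjusted p = 0.00178). Aqp8 thus fell less in KO than in floxed livers. Between the injured groups the difference was 2.44 ± 0.22 (KO minus floxed, adjusted p = 0.000259), the 184th highest of the 13708. Without the first library of injured KO livers it was 2.18 ± 0.21 (adjusted p = 0.00195). Hepatocyte markers did not move as 1 block between the injured groups: of the 9 tested, 4 were higher and 3 lower in the KO group, and their summed level, most of it Alb, was 33002 and 33442 FPKM in injured floxed and 39735 and 39845 FPKM in injured KO livers. The KO to floxed ratio of that sum was 1.20, against 6.65 for Aqp8. Apoa1, Ttr, Asgr1 and Serpina1a were higher, by 1.83, 1.70, 1.63 and 1.02 on the log2 scale. Fgb, Hnf4a and Apob were lower, by 1.78, 1.74 and 1.30. Over all tested genes 25.3% were higher and 27.2% lower. Whether the level of Aqp8 followed the share or state of hepatocytes was not tested.

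Aqp9, the aquaglyceroporin of the sinusoidal membrane, fell in both genotypes. Its levels were 49.7 and 66.1 FPKM in floxed and 47.4 and 56.5 FPKM in KO livers after H2O, and 26.9 and 28.7 FPKM in floxed and 18.8 and 22.4 FPKM in KO livers after injury. All 4 injured libraries lay below all 4 H2O libraries, and both KO libraries lay below both floxed libraries after injury. Means were 57.9 ± 11.6, 51.9 ± 6.38, 27.8 ± 1.24 and 20.6 ± 2.53 FPKM (SD, n = 2 each). Aqp9 fell by 1.02 ± 0.20 on the log2 scale in floxed livers (2.08-fold, adjusted p = 0.00349) and by 1.29 ± 0.20 in KO livers (2.52-fold, adjusted p = 0.000906). The difference between injured KO and floxed livers was -0.42 ± 0.20 (95% interval -0.88 to 0.04, adjusted p = 0.112), and the interaction was -0.27 ± 0.28 (adjusted p = 0.477), so neither passed. With quantile normalisation the first of these was -0.67 (adjusted p = 0.0177) and passed. Since Aqp9 fell 2.08-fold and Aqp8 36.5-fold in floxed livers, Aqp9 became the most abundant aquaporin there, at 71.4% and 72.0% of the summed FPKM of the 7 genes.

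Aqp1, the water channel of endothelium, bile ducts and red blood cells, moved in opposite directions in the genotypes. After H2O it stood at 9.72 and 14.5 FPKM in floxed and 10.1 and 11.5 FPKM in KO livers. After injury it stood at 6.28 and 6.26 FPKM in floxed livers and at 46.1 and 28.9 FPKM in KO livers. The injured floxed libraries lay below, and the injured KO libraries above, all 4 H2O libraries. Means were 12.1 ± 3.35, 10.8 ± 1.04, 6.27 ± 0.0117 and 37.5 ± 12.1 FPKM (SD, n = 2 each). In KO livers Aqp1 rose by 1.67 ± 0.26 on the log2 scale (adjusted p = 0.000879), against a change of -0.82 ± 0.26 in floxed livers (adjusted p = 0.0255). The interaction was 2.50 ± 0.36 (adjusted p = 0.00296), and the difference between the injured groups was 2.37 ± 0.26 (adjusted p = 0.000427), the 213th highest of the 13708 genes. Without the first library of injured KO livers these were 2.17 ± 0.31 (adjusted p = 0.00822) and 2.04 ± 0.24 (adjusted p = 0.00305). The fall in floxed livers was less firm: it did not pass without the second floxed H2O library (-0.56, adjusted p = 0.157) or without the first or second injured floxed library (-0.83 and -0.82, adjusted p = 0.0978 and 0.0924).

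Most endothelial markers, though not all, were higher in injured KO livers, as Aqp1 was. Of 12 endothelial marker genes, 11 were tested, and 8 of these were higher and 0 lower when the injured KO livers were set against the floxed ones. Of all tested genes 25.3% were higher and 27.2% lower. The 8 markers include Cdh5, the cadherin of endothelial junctions, at 5.14 and 7.41 FPKM in injured floxed and 57.9 and 36.9 FPKM in injured KO livers, and Pecam1, an adhesion molecule of endothelium, at 1.51 and 1.90 against 8.39 and 5.17 FPKM. The 3 that did not pass were Kdr, the endothelial receptor for vascular growth factor, at 0.142 and 0.193 FPKM against 0.259 and 0.182 FPKM, and Tek and Stab2 (adjusted p = 0.726, 0.267 and 0.537). After injury 1 of the 11 rose in floxed livers, Lyve1, and 7 fell, while in KO livers 7 rose and 3 fell, the 3 being Kdr, Tek and Stab2. Of all tested genes 18.5% rose and 38.8% fell in floxed livers, and 22.3% rose and 40.7% fell in KO livers. The summed level of the 12 markers was 67.2 and 62.9 FPKM in floxed H2O, 55.3 and 49.4 in KO H2O, 33.1 and 41.1 in injured floxed and 231 and 148 in injured KO livers. The ratio of injured KO to injured floxed means was 5.10 for this sum and 5.97 for Aqp1, and the ratio between the libraries of injured KO livers was 1.56 for the sum and 1.59 for Aqp1. Such ratios are not particular to endothelium. The first was 5.32 for the summed Kupffer cell markers, 7.10 for neutrophil, 2.80 for stellate cell and 2.51 for monocyte and macrophage markers. The second was 2.09, 0.935, 1.94 and 1.25 for these sums, and 1.46 for Aqp8 and 1.45 for Aqp11. The monocyte and macrophage sum includes Lyz2, under whose control Cre is made in KO mice. After H2O, Lyz2 stood at 33.7 and 72.4 FPKM in floxed and 5.27 and 9.92 FPKM in KO livers. After injury it made up 15.9 and 24.5 FPKM of sums of 28.4 and 41.8 FPKM in floxed livers. In injured KO livers it stood at 39.9 and 32.7 FPKM. Its part in the ratio of 2.51 was not tested. Some of the endothelial markers, among them Lyve1 and Stab1, are also made by macrophages.

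Red blood cell markers, of which 9 of 10 were in the table and 6 were tested, had a summed level of 85.1 and 90.4 FPKM in injured floxed and 26162 and 3743 FPKM in injured KO livers. That is a ratio of 170 between the injured groups and of 6.99 between the KO libraries, against 1.59 for Aqp1. The sum is carried by the haemoglobin genes. All 6 tested red cell markers were higher in the injured KO livers, where 25.3% of all tested genes were higher and 27.2% lower. Of these markers Alas2, the first enzyme of erythroid haem synthesis, differed by 1.55 on the log2 scale, against 2.37 for Aqp1. Slc4a1, the red cell anion exchanger, differed by 1.11. It stood at only 0.388 and 0.303 FPKM in injured floxed and 1.94 and 1.85 FPKM in injured KO livers. At that level the added 1 FPKM shrinks the change, so 1.11 cannot be set beside the value of Aqp1. Bile duct markers summed to 98.9 and 75.8 FPKM in injured floxed and 102 and 82.1 FPKM in injured KO livers, a ratio of 1.05. That sum is made up mostly of Spp1 and Slc10a2, and single markers differed: of 7 tested, Krt19, Sox9 and Tstd1 were higher in injured KO livers and Slc10a2 was lower. Whether the level of Aqp1 followed the share of endothelial or red cells was not tested.

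**Figure D2:**
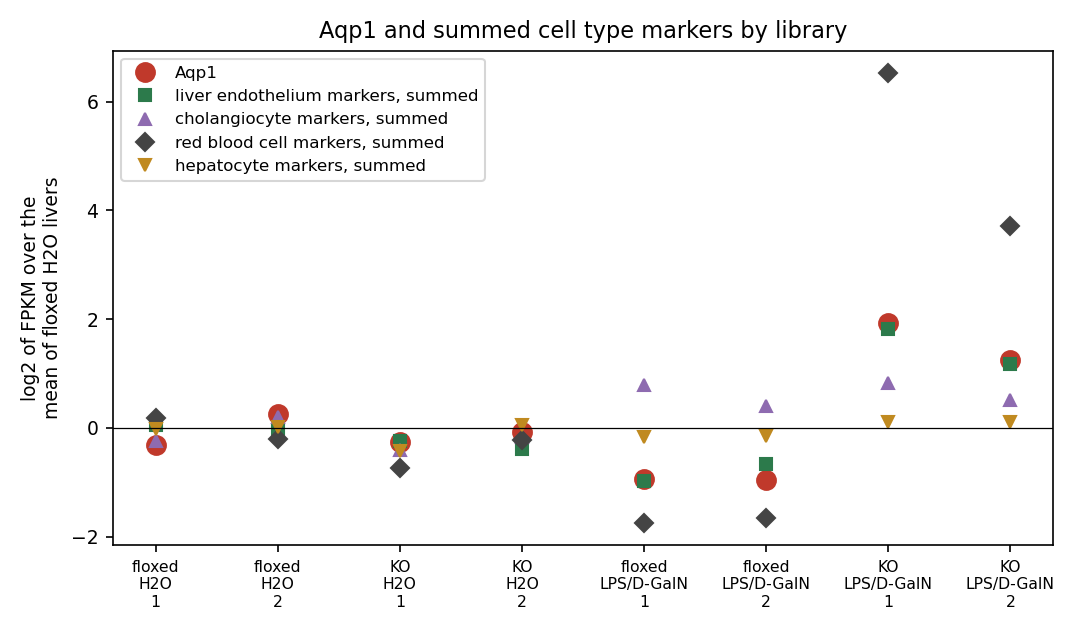
Level of Aqp1 and summed levels of endothelial, red blood cell and bile duct (cholangiocyte) markers in each library, as log2 of the ratio to the mean of the floxed H2O livers. Hepatocyte markers are shown as well. In injured KO livers Aqp1 and the endothelial sum lie close together, the red blood cell sum lies far above them, and the bile duct and hepatocyte sums lie below. The sums of Kupffer cell, neutrophil and other markers are not shown.

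Aqp11, the aquaporin of the endoplasmic reticulum, whose loss in mice causes swollen vesicles in kidney and liver cells, was low in all groups. It stood at 3.05 and 2.59 FPKM in floxed and 2.16 and 2.50 FPKM in KO livers after H2O, and at 0.571 and 0.455 FPKM in floxed and 1.19 and 0.823 FPKM in KO livers after injury. The injured libraries lay below all H2O libraries, and both injured KO libraries lay above both injured floxed ones. These levels rest on 101 to 610 fragments per library. Aqp11 fell in floxed livers (5.49-fold, log2 change -1.33 ± 0.15, adjusted p = 0.000281) and in KO livers (2.32-fold, log2 change -0.74 ± 0.15, adjusted p = 0.00354). The difference between the injured groups was 0.40 ± 0.15 (95% interval 0.05 to 0.75, adjusted p = 0.0539) and the interaction 0.60 ± 0.21 (adjusted p = 0.0600), both just short of the threshold. At this level the added 1 FPKM weighs on the change: with 0.1 FPKM in its place the difference was 0.84 (adjusted p = 0.0227) and the interaction 1.10 (adjusted p = 0.0424), and both passed. They also passed without the second library of injured KO livers, at 0.53 (adjusted p = 0.0335) and 0.73 (adjusted p = 0.0359).

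**Figure D3:**
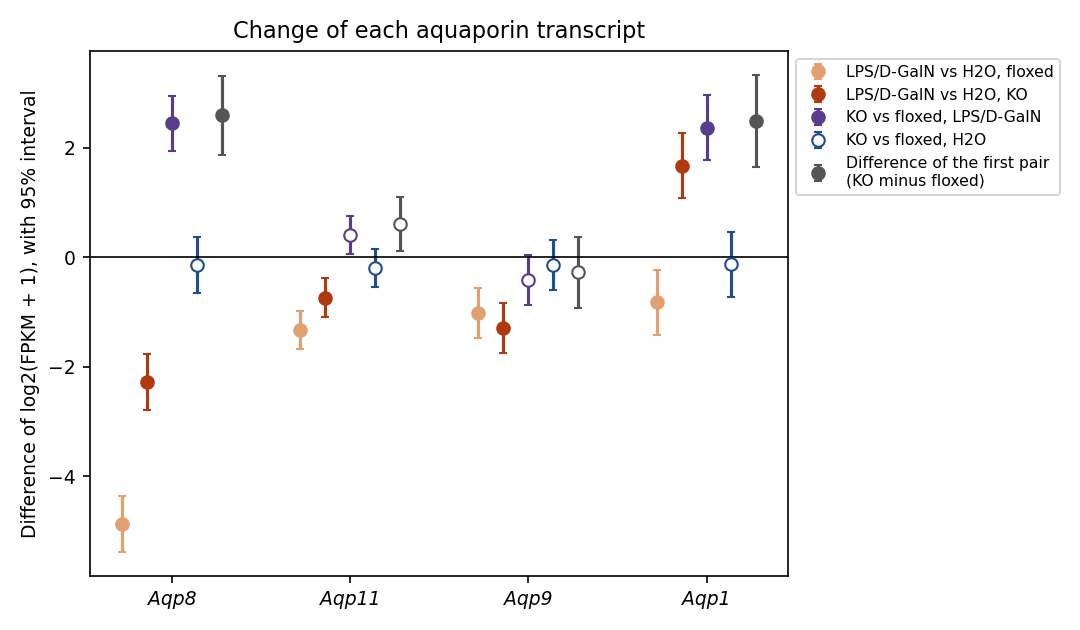
Log2 change of each tested aquaporin, in log2(FPKM + 1), for injury in floxed and in KO livers, for KO against floxed livers after injury and after H2O, and for the interaction. Points are the limma estimates, bars their 95% intervals, and open symbols values that did not pass the threshold. Aqp8 lies far below 0 in both genotypes, and Aqp1 lies on opposite sides of 0.

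Counted over the 4 tested aquaporins, all 4 fell in floxed livers, where 57.3% of all tested genes passed, 38.8% falling and 18.5% rising. In KO livers 3 fell and 1 rose, where 63.0% of all genes passed, 40.7% falling and 22.3% rising. Averaged over both genotypes 3 fell and 0 rose, where 69.2% of all genes passed, 45.1% falling and 24.1% rising, and Aqp1 did not pass (0.42 ± 0.18, adjusted p = 0.0675). Between injured KO and floxed livers 2 were higher and 0 lower, where 52.5% of all genes passed, 25.3% higher and 27.2% lower. For the interaction 2 were higher and 0 lower, where 36.0% of all genes passed, 20.9% higher and 15.1% lower. After H2O none passed between the genotypes, where 0.00730% of all genes did. None of the 4 reached an unadjusted p of 0.05 there, and none passed with voom in limma on recovered fragments, chosen after the data were seen. The 95% intervals of that difference (KO minus floxed) ran from -0.66 to 0.36 for Aqp8, from -0.61 to 0.32 for Aqp9, from -0.72 to 0.47 for Aqp1 and from -0.54 to 0.15 for Aqp11. These counts rest on 4 genes and describe them only. The median change over all tested genes was -0.28 in floxed and -0.28 in KO livers as deposited and -0.01 and -0.05 after median centring, and the share of rises among all calls went from 32.3% to 49.7% and from 35.4% to 48.2%. Under no scaling did an aquaporin change its direction in any comparison.

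The summed level of the 7 aquaporins fell from between 193 and 226 FPKM in the H2O libraries to 37.7 and 39.9 FPKM in injured floxed and 98.1 and 74.1 FPKM in injured KO livers. After H2O, Aqp8 made up 60.4% to 72.3% of this sum and Aqp9 22.0% to 31.3%. In injured floxed livers Aqp8 made up 9.98% and 10.6%. In injured KO livers Aqp1 held the largest share, 46.9% and 39.0%, with Aqp8 at 32.0% and 29.2% and Aqp9 at 19.2% and 30.3%. The order of levels was thus Aqp8, Aqp9, Aqp1 and Aqp11 after H2O, Aqp9, Aqp1, Aqp8 and Aqp11 in injured floxed livers, and Aqp1 before Aqp8 and Aqp9 in injured KO livers. Aqp8 and Aqp9 overlapped in the injured KO libraries, so their order is not resolved there.

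**Figure D4:**
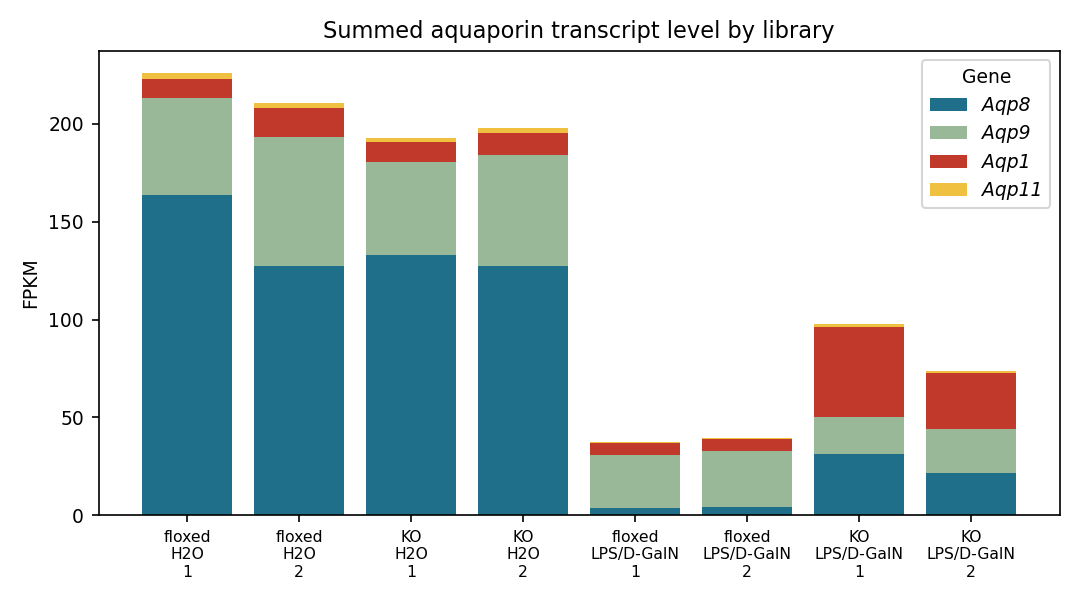
Summed level of the tested aquaporins (FPKM), as 1 stacked bar for each library. The bars reach 193 to 226 FPKM after H2O, where Aqp8 takes most of each bar, and are lower after injury, where Aqp9 takes most in floxed livers and Aqp1 the largest share in KO livers.

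The members below the test level were read from fragments. Aqp4 had 16 to 53 fragments per library. It stood at 0.128 and 0.260 FPKM in floxed and 0.286 and 0.279 FPKM in KO livers after H2O, and at 0.132 and 0.191 FPKM in floxed and 0.343 and 0.196 FPKM in KO livers after injury. The KO libraries lay above the floxed ones in each treatment, and within each genotype the ranges after H2O and after injury overlapped. After injury that order is not resolved. It rests on 0.196 FPKM (26 fragments) in KO against 0.191 FPKM (28 fragments) in floxed livers. In a limma fit with no filter on low values the injured difference was 0.13 ± 0.10 (adjusted p = 0.416). Aqp7, the glycerol channel of adipocytes and capillaries, had 16 and 7 fragments in injured KO livers and 1 to 6 in each of the other libraries. Its level was 0.228 and 0.116 FPKM in injured KO livers and 0.0181 and 0.0300 FPKM in injured floxed livers, without overlap. In a fit with no filter on low values, over 39146 genes, the difference was 0.19 ± 0.06 (adjusted p = 0.0681) and did not pass. The defining adipocyte markers Adipoq and Lep, which encode secreted hormones, were at 0 in all H2O and injured floxed libraries and at most 0.102 FPKM in injured KO libraries. Fabp4, a fatty acid carrier of adipocytes, capillaries and macrophages, stood at 47.2 and 21.0 FPKM in injured KO and 5.91 and 7.35 FPKM in injured floxed livers.

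Aqp3, an aquaglyceroporin of epithelia and of some immune cells, had 6 fragments over the 8 libraries, and 4 of these were in injured KO livers. It was listed at 0 in 4 libraries, where 3 fragments would have given 0.0661 to 0.0892 FPKM. With no filter, Aqp3, Aqp4 and Aqp7 passed in none of the 6 comparisons. Of the remaining mouse aquaporin genes looked up, Aqp2 and Aqp6 had no fragment in any library, which allows a level of up to 0.0853 to 0.115 FPKM for Aqp2 and up to 0.0499 to 0.0674 FPKM for Aqp6. Mip, Aqp12 and Aqp5 had 16, 4 and 3 fragments in all. These limits cover counting error only.

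The genes closest to each aquaporin were found over all 8 libraries, as the smallest root mean square difference in log2(FPKM + 1) after centring each gene. The likeness describes libraries that share groups and depth, and carries no test. Closest to Aqp8 was Coq8a, a mitochondrial protein of coenzyme Q synthesis, at 0.196 (r = 0.995), then Tymp, thymidine phosphorylase, at 0.250 and Mapk15, an atypical MAP kinase, at 0.263. Coq8a stood at a mean of 76.7 and 83.6 FPKM in floxed and KO livers after H2O and at 2.25 and 13.2 FPKM after injury. Closest to Aqp9 were Tbc1d25, a regulator of Rab GTPases, at 0.092, Acsm1, a medium-chain acyl-CoA synthetase, at 0.099 and Fcsk, fucose kinase, at 0.107.

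Closest to Aqp1 were Id3, an inhibitor of helix-loop-helix factors, at 0.134 (r = 0.993), and the ribosomal protein genes Rpl35 at 0.142 and Rpl32 at 0.159, whose values are uncertain because processed copies of such genes can share their reads. Id3 stood at a mean of 25.3 FPKM in injured floxed and 157 FPKM in injured KO livers. Closest to Aqp11 were Exoc3l, related to the exocyst, at 0.073, 1110032A03Rik at 0.073 and Mpc1, a subunit of the mitochondrial pyruvate carrier, at 0.089. No aquaporin was among the closest genes of another: the nearest such pair, Aqp9 and Aqp11, differed by 0.358, and Aqp11 was the 2282nd closest gene to Aqp9.

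The genes that use the glycerol which Aqp9 admits were read from a list of 12, all tested. In floxed livers 5 of them fell and 1 rose, and in KO livers 6 fell and 1 rose, with median changes of -0.46 and -0.44 against -0.28 over all tested genes in both. Of all tested genes 38.8% fell and 18.5% rose in floxed livers, and 40.7% fell and 22.3% rose in KO livers, so the counts of falls lie near the shares of all genes. G6pc, the catalytic subunit of glucose 6-phosphatase and the last step of glucose release, had a mean of 285 FPKM after H2O and 1.38 FPKM after injury in floxed livers, and of 233 and 3.52 FPKM in KO livers (log2 changes -6.91 ± 0.67 and -5.81 ± 0.67, adjusted p = 0.000152 and 0.000244). Gpd1, which turns glycerol 3-phosphate into dihydroxyacetone phosphate, fell by 2.33 ± 0.24 in floxed and by 1.13 ± 0.24 in KO livers (adjusted p = 0.000205 and 0.00451). Gpd1l, its relative, fell by 1.15 ± 0.14 and 1.21 ± 0.14, and Tkfc, the kinase of dihydroxyacetone and glyceraldehyde, fell by 1.62 ± 0.27 and 1.46 ± 0.27. Fbp1, a fructose bisphosphatase of glucose synthesis, went the other way and rose by 1.89 ± 0.31 and 0.95 ± 0.31 (adjusted p = 0.00147 and 0.0269), though the count of rises in KO livers went to 0 without the first KO H2O library or either injured KO library. Glycerol kinase (Gk), the first step after uptake, was named after its values were seen. It had a mean of 9.44 FPKM after H2O and 8.39 FPKM after injury in floxed livers, and of 9.04 and 5.96 FPKM in KO livers. Gk fell in KO livers (-0.53 ± 0.15, adjusted p = 0.0158) but did not pass in floxed livers (-0.16 ± 0.15, adjusted p = 0.393). The interaction for Gk was -0.37 ± 0.21 (adjusted p = 0.207) and did not pass.

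Of 12 genes of lipolysis and its control, all tested, 8 fell and 1 rose in floxed livers and 5 fell and 2 rose in KO livers (medians -1.19 and -0.72). The list joins lipases with lipid droplet coat proteins and with G0s2, an inhibitor of the lipase Pnpla2. Its counts therefore give no direction for the release of glycerol. The falls in KO livers lie near the 40.7% of all tested genes that fell there, and in floxed livers 38.8% of all genes fell. Mgll, monoglyceride lipase, fell by 2.22 ± 0.23 and 1.64 ± 0.23, Plin5, a lipid droplet coat protein, by 2.16 ± 0.24 and 1.34 ± 0.24, and Lipe, hormone-sensitive lipase, by 1.26 ± 0.19 and 1.26 ± 0.19. Pnpla2, adipose triglyceride lipase, rose by 1.84 ± 0.21 in KO livers (adjusted p = 0.000208) and by 0.71 ± 0.21 in floxed livers (adjusted p = 0.0194), and Lpl, lipoprotein lipase, rose by 0.78 ± 0.19 in KO livers (adjusted p = 0.00779). The count of rises in floxed livers, of Pnpla2 alone, went to 0 without the second floxed H2O library or either injured floxed library, and to 2 without the first floxed H2O library or either KO H2O library. G0s2, named after its values were seen, fell by 5.46 ± 0.55 in floxed livers (adjusted p = 0.000179). In KO livers it did not pass (-1.35 ± 0.55, adjusted p = 0.0644). Between the injured groups 4 genes were higher and 0 lower in KO livers, where 25.3% of all tested genes were higher and 27.2% lower. The 4 were G0s2, Pnpla2, Plin5 and Lipc, a hepatic lipase.

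Of 10 genes that build glycerolipids, 7 fell and 2 rose in floxed livers and 4 fell and 2 rose in KO livers. The 4 falls in KO livers lie near the 40.7% of all tested genes that fell, and the rises lie near the 18.5% and 22.3% that rose. The 7 became 4 without either floxed H2O library or without the second injured floxed library. The 2 rises in floxed livers became 1 without the first floxed H2O library, either KO H2O library or the first injured floxed library, and the 2 in KO livers became 1 without any single library other than the second injured KO library. Gpam, the mitochondrial glycerol 3-phosphate acyltransferase, had a mean of 34.6 FPKM after H2O and 3.07 FPKM after injury in floxed livers, and of 34.0 and 1.86 FPKM in KO livers (log2 changes -3.13 ± 0.16 and -3.62 ± 0.16, adjusted p = 1.57e-05 and 4.92e-06). Agpat2, the next acyltransferase, fell by 2.21 ± 0.23 and 2.05 ± 0.23. The rises in floxed livers were Gpat3, a further acyltransferase, and Lpin1, a phosphatidate phosphatase, at 0.55 ± 0.19 and 1.87 ± 0.37 (adjusted p = 0.0388 and 0.00372).

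Most genes of bile formation, at the canalicular membrane that Aqp8 also occupies or on the sinusoidal side, fell in both genotypes. Of 14 genes of bile formation 13 were tested, of which 11 fell and 1 rose in floxed livers and 12 fell and 0 rose in KO livers (medians -1.32 and -1.05). Of all tested genes 38.8% and 40.7% fell. Abcc2, the canalicular pump for conjugates, fell by 2.74 ± 0.25 and 3.03 ± 0.25, Slc26a1, a sulfate anion exchanger, by 2.85 ± 0.20 and 2.81 ± 0.20, Abcg8, a sterol pump, by 1.58 ± 0.19 and 1.49 ± 0.19, and Slco1a4, an uptake transporter, by 1.50 ± 0.22 and 1.66 ± 0.22. Between injured KO and floxed livers 0 of these genes were higher and 1 was lower, where Aqp8 was higher and where 25.3% of all tested genes were higher and 27.2% lower. The lower count became 2 without the second injured KO library and 3 with quantile normalisation, and the higher count became 1 without the first injured floxed library or with centring within classes of exon length. The gene lower in KO livers was Atp8b1, a canalicular lipid flippase and the only rise in floxed livers (0.78 ± 0.17, adjusted p = 0.00589). It fell by 0.60 ± 0.17 in KO livers, and its interaction was -1.38 ± 0.24 (adjusted p = 0.00532). For Abcc2 the difference between the injured groups was -0.24 ± 0.25 (adjusted p = 0.452), and for Slc26a1 it was -0.03 ± 0.20 (adjusted p = 0.923), against 2.44 ± 0.22 for Aqp8.

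**Figure D5:**
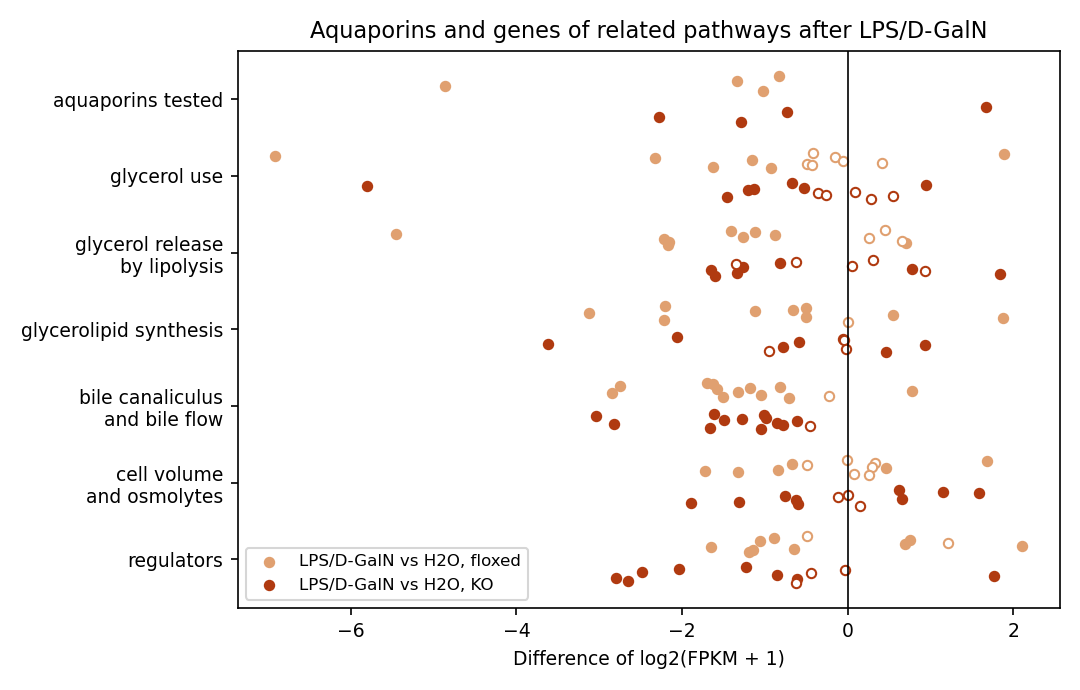
Change after injury (difference of log2(FPKM + 1), horizontal axis) of the tested aquaporins and of each gene list (rows), in floxed and in KO livers, with 1 point for each gene. Filled points passed the threshold and open points did not. The lowest aquaporin point in each genotype is Aqp8, at -4.87 and -2.28, and the only aquaporin point to the right of 0 is Aqp1 in KO livers.

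Genes that control cell volume and organic osmolytes moved in both directions. Of 19, 12 were tested, and 2 rose and 4 fell in floxed livers and 4 rose and 5 fell in KO livers (medians 0.04 and -0.06). These counts lie near the shares of all tested genes, of which 18.5% rose and 38.8% fell in floxed and 22.3% rose and 40.7% fell in KO livers. The 2 rises in floxed livers became 1 without either floxed H2O library or without the first injured floxed library, and the 5 falls in KO livers became 3 without the second injured KO library. Lrrc8a, the obligatory subunit of the volume-regulated anion channel, rose by 1.68 ± 0.15 in floxed and 1.15 ± 0.15 in KO livers (adjusted p = 0.000102 and 0.000396). Lrrc8c, a partner subunit, rose by 1.58 ± 0.20 in KO livers (adjusted p = 0.000385). Slc6a12, the betaine transporter, fell by 1.32 ± 0.17 and 1.89 ± 0.17, and Slc12a7, a potassium chloride cotransporter, by 1.72 ± 0.23 and 1.32 ± 0.23.

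Factors known to act on hepatic aquaporin genes, or on the hormone signals that reach them, were read from a list of 11, all tested. In floxed livers 6 fell and 3 rose, and in KO livers 7 fell and 1 rose (medians -0.65 and -0.86), where 38.8% and 40.7% of all tested genes fell and 18.5% and 22.3% rose. Nr1h4, the bile acid receptor FXR, fell by 1.65 ± 0.19 in floxed and 2.80 ± 0.19 in KO livers, Ppara, the fasting-responsive lipid receptor, by 1.14 ± 0.17 and 2.65 ± 0.17, and Foxa2, a pioneer factor of hepatocytes, by 0.88 ± 0.21 and 2.04 ± 0.21. The fall of Foxa2 in floxed livers did not pass without the second floxed H2O library. In injured KO against injured floxed livers 8 were lower and 0 higher, against 27.2% lower and 25.3% higher over all tested genes. Whether any of these factors acted on the aquaporin genes in these livers was not tested. The rise counted in KO livers was Irs2, an insulin receptor substrate (1.77 ± 0.43, adjusted p = 0.00852), and it was lost without the second KO H2O library. The rises in floxed livers were Irs2 (2.11 ± 0.43, adjusted p = 0.00442), Foxo1, the insulin-restrained transcription factor (0.75 ± 0.15, adjusted p = 0.00366), and Insr, the insulin receptor (0.69 ± 0.17, adjusted p = 0.0105). For Insr the change was -0.86 ± 0.17 in KO livers (adjusted p = 0.00344), and the interaction was -1.55 ± 0.24 (adjusted p = 0.00388).

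The difference between the injured groups varied with gene length. Its median was 0.28 over 3827 tested genes with up to 2000 bases of exon, 0.02 over 3749 genes with more than that and up to 4000, -0.18 over 2656 genes with up to 6000 and -0.33 over 3234 longer genes. Aqp8, with 1581 bases of exon, lies in the first class, Aqp1 with 2627 in the second, Aqp9 with 4143 in the third and Aqp11 with 9418 in the last. When each class was centred on its own median, a step chosen after the data were seen, the differences were 2.14 for Aqp8 (adjusted p = 0.000209), 2.35 for Aqp1, -0.23 for Aqp9 and 0.71 for Aqp11 (adjusted p = 0.00571), so that Aqp11 then passed. In the same setting the interaction was 2.23 for Aqp8, 2.36 for Aqp1 and 0.79 for Aqp11 (adjusted p = 0.0227). What set the trend with length was not tested.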

How the data were processed

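RNA from mouse livers was extracted with TRIzol and made into libraries with the NEBNext Ultra RNA kit for an Illumina NovaSeq 6000, per the labels. The authors deposited 1 table of FPKM values with 1 column for each of the 8 libraries, matched to samples by their descriptions. DESeq2 3.15 and the build GRCm39 are named in the submitters' processing notes. No aligner, counting tool or use of strand is named in the sources used here. Aqp9 and Aqp4 are overlapped by genes on the opposite strand, though not in exons.

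The FPKM values, multiplied by exon lengths of GENCODE M21 (52135 genes), lay within 0.01 of whole fragments for 98.2% to 98.5% of values above 0, which gave each library's total. Values were used as log2(FPKM + 1), scaled as deposited. Genes that reached 1 FPKM in 2 or more libraries were fitted with limma 3.58.1 in R 4.3.3 (1 mean per group, 4 residual degrees of freedom, trended empirical Bayes), two-sided, with Benjamini-Hochberg adjustment over 13708 genes and a threshold of 0.05. In simulated data on these genes, where only a small part of them was changed, the interaction test found 72.5% of 4-fold and 0% of 2-fold changes. The comparison of injured groups found 90.5% and 38.5%. In the real data 36.0% and 52.5% of all genes passed in these comparisons, which makes the adjustment less strict. The simulated shares therefore do not carry over to them.

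The aquaporins and gene lists were chosen with earlier results of these data known. Named genes were the aquaporins, Glul, the 3 genes closest to each tested aquaporin, up to 4 genes with the smallest p for averaged injury in each list plus those counted as moving the other way, and defining or abundant cell markers. Alternatives were another pseudocount, other filters, scalings and weights, a fit on the compared groups alone, blocking by replicate number, and omitting single libraries. Voom on recovered fragments and centring by exon length were added after the data were seen. Figures were drawn with Python 3.11.15, pandas 2.3.3, numpy 2.4.6 and matplotlib 3.10.9.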

Additional observations from a re-analysis of the deposited data

Results flagged for a closer look

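Aqp8 changed differently after injury in the 2 genotypes. The interaction in limma was 2.59 on the log2 scale (SE 0.31, adjusted p = 0.00178), and both injured KO libraries (31.4 and 21.6 FPKM) lay above both injured floxed libraries (3.76 and 4.21 FPKM).

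Aqp1 also changed differently, with an interaction of 2.50 (SE 0.36, adjusted p = 0.00296). Its level was 46.1 and 28.9 FPKM in injured KO livers and 6.28 and 6.26 FPKM in injured floxed livers. The summed endothelial markers stood at 231 and 148 against 33.1 and 41.1 FPKM, but Kdr, Tek and Stab2 among them did not pass between the injured groups. The summed Kupffer cell markers stood at 276 and 132 against 29.4 and 47.3 FPKM.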

How the results depend on the processing

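Under 11 other settings and 8 fits that left out 1 library each, no aquaporin value that passed changed its sign, and 419 of 442 values kept their side of the threshold, while 7 lost and 16 gained a pass. The differences between genotypes after H2O, of which none passed, changed sign for Aqp8 without the first floxed H2O library (0.03) and for Aqp9 and Aqp1 without the second (0.06 and 0.14). The injured difference between genotypes and the interaction of Aqp8 and Aqp1 passed in all of them, and with 1 library left out the difference ran from 2.18 to 2.70 for Aqp8 and from 2.04 to 2.69 for Aqp1. The counts of aquaporins past the threshold stayed at 3 to 4 for injury and 2 to 3 for the injured difference and the interaction with 1 library left out.

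The fall of Aqp1 in floxed livers was lost with no filter (adjusted p = 0.0842), median centring (0.0884) and centring by exon length (0.0534), and with 3 of the 8 libraries left out in turn. Averaged injury for Aqp1 passed with median centring (0.67, adjusted p = 0.00881), quantile normalisation, centring by exon length, and without the second floxed H2O or second injured KO library. The difference of Aqp11 between injured groups passed with median centring (adjusted p = 0.0324), with scaling that left out mitochondrial and haemoglobin genes (0.0435) and with voom on recovered fragments (0.97, adjusted p = 0.0107), and its fall in KO livers was lost with centring by exon length (0.0543). A mean of at least 5 FPKM left Aqp11 out. The causes were not tested. Among the other named genes 109 of 4202 values lost and 42 gained a pass, and of the list counts 180 of 1568 moved by over 1.5 times.

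With the replicate number as a block no aquaporin call changed (interaction for Aqp8 2.59, adjusted p = 0.00385, and for Aqp1 2.50, adjusted p = 0.00679). The deviations of libraries with equal numbers had a correlation of 0.27 between the floxed and KO groups after H2O. For the other pairs of groups it ran from -0.10 to 0.03. The labels do not say that equal numbers share a batch, and the numbers were not taken to pair the samples. With 2 libraries a group, changes near 2-fold were often missed in the simulated data, where few genes changed.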
